A study of Mus musculus with 2 samples.

Results

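Markers of macrophages, of leukocytes in general and of osteoclasts were followed in RNA from mouse chondrocyte cultures. The members were a list of 40 genes, matched by symbol to a table of 13138 genes. Of these, 35 matched by the listed symbol and Spi1 matched by its older symbol Sfpi1, which left 36 measured genes. All 36 passed the minimum mean of 50 on the linear scale (5.64 on the log2 scale) that 12809 genes passed. Oscar, Dcstamp, Ocstamp and Calcr matched no row and were not analysed here, so 4 of the 5 osteoclast markers have no value. The study held 2 libraries of primary chondrocytes from C57Bl/6 mice, grown ex vivo at high density as micromasses. One culture was transduced with an adenovirus carrying Cre recombinase, and its label gives an Hdac3 knockout. The other was transduced with a control adenovirus for GFP, green fluorescent protein, and has the label wild type. Age, number of animals, the promoter driving Cre and the exons it removes were not given in the sources used here. The libraries are called Cre and GFP after their labels, since the total level of Hdac3 did not separate them (log2 normalized count 10.68 in Cre and 10.69 in GFP). With 1 library a group there is no replicate, no test and no p-value, and the sequencing depth behind each value is unknown. Every difference is Cre minus GFP on the authors' log2 scale and compares these libraries, not the conditions.

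Macrophages are tissue phagocytes that depend on the growth factor CSF1 and its receptor CSF1R, and the transcription factor PU.1, encoded by Spi1, sets up their gene programme. Their precursors fuse into osteoclasts, the cells that resorb bone and calcified cartilage, when CSF1 acts together with the cytokine RANKL (Tnfsf11), while osteoprotegerin (Tnfrsf11b) traps RANKL as a decoy. Chondrocytes and other mesenchymal cells produce CSF1, RANKL and osteoprotegerin, so both sides of this exchange can be read in 1 culture. The labels name chondrocytes as the only cell type of the cultures.

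The markers were present in both libraries, and most were somewhat higher in Cre. Of the 36 measured genes, 24 lay above 0 and 12 below. A difference of at least 1.5-fold (0.585 on the log2 scale) was reached by 7 genes in the direction of Cre, where 2.25% of all genes past the minimum did so, and by 1 gene in the direction of GFP, where 0.952% did so. At 2-fold, 3 members were higher in Cre (0.734% of all genes) and 0 were lower (0.0703% of all genes). The median difference of the members was 0.24, against -0.00041 over all genes. The 7 higher genes were Slc11a1, Emr1, Acp5, Lyz1, Lyz2, Msr1 and Cybb, and the lower one was Mrc1. In bulk RNA, a difference in the number of cells of a type cannot be told apart from one in RNA per cell.

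**Figure D1:**
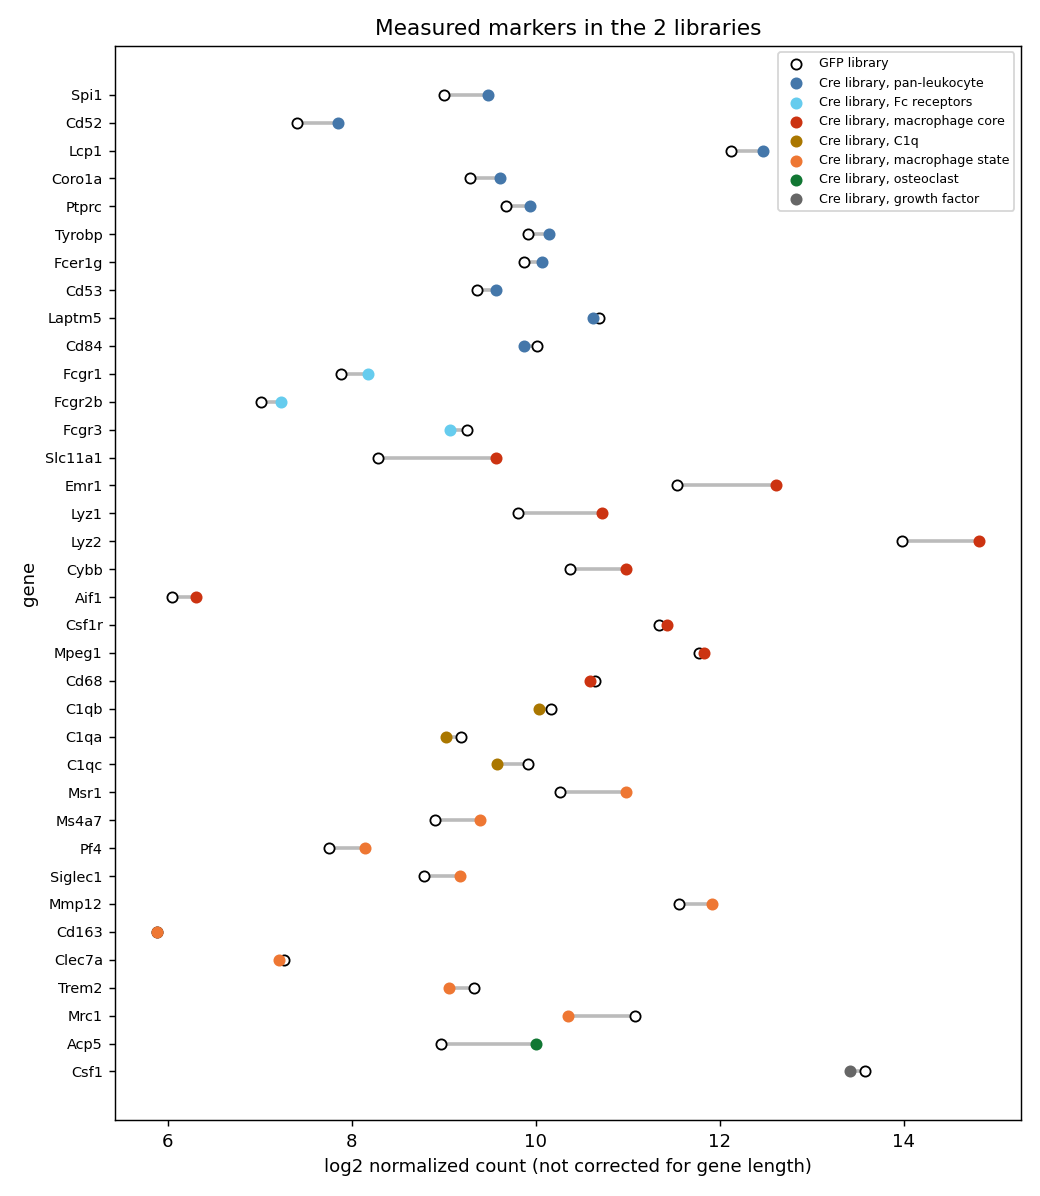
Log2 normalized count (x axis, not corrected for gene length) of the 36 measured markers (y axis, grouped by class). Open circles are the GFP library and filled circles the Cre library. Of the 10 pan-leukocyte genes, 8 lie to the right in Cre, none by 1.5-fold. Slc11a1, Emr1, Acp5, Lyz1, Lyz2, Msr1 and Cybb are shifted to the right by at least 1.5-fold, and Mrc1 to the left.

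The pan-leukocyte class was slightly higher in Cre, with none of its genes past 1.5-fold. Some of its genes are tied to myeloid cells more than to all leukocytes, among them Spi1, Tyrobp and Fcer1g. Of 10 genes, 8 lay above 0 and 2 below, with a median of 0.24 and a range from -0.15 to 0.47. Spi1 had a log2 normalized count of 9.478 in Cre and 9.004 in GFP, a difference of 0.47 that was the highest in this class. Ptprc, which encodes the phosphatase CD45 found on nearly all blood leukocytes, had 9.94 in Cre and 9.68 in GFP, a difference of 0.26. The signalling adaptors Tyrobp (DAP12) and Fcer1g, which pass on signals from activating receptors of myeloid cells, differed by 0.22 and 0.21. They were thus shifted by nearly the same amount as Ptprc.

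The actin-bundling gene Lcp1 (L-plastin) differed by 0.34 and the actin regulator gene Coro1a by 0.32. Cd52, a small glycoprotein gene of the leukocyte surface, differed by 0.45, and the tetraspanin gene Cd53 by 0.20. Exons of Crybg2 on the opposite strand cover 14.5% of the exon bases of Cd52, and the strand setting of the counting was not given. On the other side of 0 lay Laptm5, a lysosomal membrane protein gene, at -0.07, and Cd84, an adhesion receptor gene of the SLAM family, at -0.15. Among the receptors for the constant part of immunoglobulin G, Fcgr1 differed by 0.28, the inhibitory Fcgr2b by 0.22 and the activating Fcgr3 by -0.19. Fcgr2b and Fcgr3 have similar copies of some exons: 9.58% of the 50-base stretches of Fcgr3 transcripts also occur in Fcgr2b, so their values are uncertain where reads could be assigned to either.

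Macrophage core genes divided into 5 that were at least 1.5-fold higher in Cre (2.25% of all genes) and 4 that were not. Of those 4, 3 lay within 0.1 of 0. The class of 9 had a median of 0.61 and a range from -0.05 to 1.28. Slc11a1, which encodes the metal transporter NRAMP1 of phagosomes (chromosome 1, 74375195 to 74386062 on GRCm38, plus strand), had a log2 normalized count of 9.57 in Cre and 8.29 in GFP. It was 2.43-fold higher in Cre, the largest difference of all members, and ranked 48 of 12809 genes. Of the 2222 genes within 0.5 of its mean log2 level, 8 (0.360%), itself included, were as high or higher.

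Emr1, now named Adgre1, encodes the surface protein F4/80 that is used to stain mouse macrophages (chromosome 17, 57358691 to 57483527, plus strand). Its log2 normalized count was 12.62 in Cre and 11.54 in GFP, which is 2.11-fold higher in Cre. Among 1188 genes of similar mean level, 5 were as high or higher. Cybb, which encodes the membrane subunit of the phagocyte NADPH oxidase (chromosome X, 9435252 to 9487771, minus strand), had 10.98 in Cre and 10.37 in GFP and was 1.52-fold higher, just past the 1.5-fold threshold. Of the oxidase subunit genes in the list of leukocyte actin and GTPase genes, Ncf4 differed by 0.47, Cyba by 0.44 and Ncf1 by 0.39.

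Of the remaining 4 core genes, 3 were close to level. Csf1r, the CSF1 receptor gene, had a log2 normalized count of 11.43 in Cre and 11.34 in GFP, a difference of 0.08. Exons of Hmgxb3 on the opposite strand cover 15.1% of its exon bases, so part of this value could come from that gene. Mpeg1, which encodes the pore-forming protein perforin-2, had 11.83 in Cre and 11.78 in GFP, a difference of 0.05. Cd68, a lysosomal glycoprotein gene of macrophages, had 10.59 in Cre and 10.65 in GFP, a difference of -0.05. Aif1, an actin-binding protein gene also called Iba1, differed by 0.26 at a low level, with 6.31 in Cre and 6.04 in GFP. At such levels the authors' transform may compress differences: the standard deviation (SD) over genes was 0.15 below a mean log2 value of 7 and 0.23 from 9 to 11.

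Both lysozyme genes, whose product cuts bacterial cell walls, were higher in Cre. Lyz2, the form of mouse macrophages (chromosome 10, 117277331 to 117282321, minus strand), had a log2 normalized count of 14.82 in Cre and 13.98 in GFP and was 1.79-fold higher. Differences of this size were less rare at its high level: of 144 genes of similar mean level, 9 (6.25%), Lyz2 included, were as high or higher. Lyz1, its neighbour (chromosome 10, 117287797 to 117292868, minus strand), had 10.72 in Cre and 9.81 in GFP and was 1.88-fold higher. The pair is not independent. Their transcripts are identical at 1211 of 1317 aligned positions (92.0%), and 16.1% of the 50-base stretches of the Lyz1 transcript also occur in Lyz2. How reads with several alignments were counted was not given, so the Lyz1 value may hold reads of the more abundant Lyz2. Their promoters, shown here because they are also near copies, matched at 200 of 252 aligned positions (79.4%) over the 250 bases before the RefSeq start on GRCm38. Capitals mark bases that differ from the other gene in the alignment.
Lyz1 promoter, chr10:117292869-117293118, minus strand: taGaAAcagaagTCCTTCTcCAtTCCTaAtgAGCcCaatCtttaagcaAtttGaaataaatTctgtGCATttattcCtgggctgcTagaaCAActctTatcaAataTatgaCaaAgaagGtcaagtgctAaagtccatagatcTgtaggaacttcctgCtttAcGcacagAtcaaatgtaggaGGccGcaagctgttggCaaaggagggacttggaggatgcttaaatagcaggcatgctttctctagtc
Lyz2 promoter, chr10:117282273-117282522, minus strand: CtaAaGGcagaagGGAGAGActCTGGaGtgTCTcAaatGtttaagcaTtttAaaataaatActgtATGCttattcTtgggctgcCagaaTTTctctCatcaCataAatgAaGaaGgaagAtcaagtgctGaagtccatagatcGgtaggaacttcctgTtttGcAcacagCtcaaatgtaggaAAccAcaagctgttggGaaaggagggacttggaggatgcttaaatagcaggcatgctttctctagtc
The capitals are dense in the part far from the RefSeq start and absent from the last bases before it. By the GENCODE gene span given above, the end of the Lyz2 window already lies within the gene.

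C1q subunit genes lay on the side of GFP. C1q is the recognition protein of the classical complement pathway and is made mainly by macrophages, from 3 subunit genes that sit side by side on chromosome 4. C1qa had a log2 normalized count of 9.03 in Cre and 9.19 in GFP, a difference of -0.16. C1qb had 10.03 in Cre and 10.16 in GFP, a difference of -0.13, and C1qc had 9.58 in Cre and 9.91 in GFP, a difference of -0.34. All 3 were below 0 and 0 reached 1.5-fold.

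Genes tied to the state of macrophages spread widely in both directions. Of 9 genes, 5 lay above 0 and 4 below. The 1.5-fold threshold was passed by 1 gene in each direction (2.25% of all genes higher and 0.952% lower). The class median was 0.37 and its mean 0.15. Msr1, the class A scavenger receptor gene, which takes up modified lipoproteins (chromosome 8, 39581685 to 39642673, minus strand), had a log2 normalized count of 10.99 in Cre and 10.26 in GFP and was 1.66-fold higher in Cre. Mrc1, the mannose receptor gene CD206, used as a marker of alternatively activated and tissue-resident macrophages (chromosome 2, 14229392 to 14332057, plus strand), had 10.35 in Cre and 11.08 in GFP. It was 1.66-fold higher in GFP and ranked 60 from the lowest of 12809 genes. Of the 2447 genes near its mean level, 9 were as low or lower. These endocytic receptor genes had close mean levels (10.62 and 10.71) and differences of similar size and opposite sign.

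Of the other state genes, Ms4a7, a tetraspan membrane protein gene, differed by 0.50, the platelet factor 4 chemokine gene Pf4 by 0.39, the sialoadhesin gene Siglec1 by 0.39 and the elastase gene Mmp12 by 0.37. Trem2, a lipid-sensing receptor gene that signals through Tyrobp, differed by -0.27, and the beta-glucan receptor gene Clec7a by -0.05. Cd163, the haemoglobin scavenger receptor gene, was the least abundant member, with 5.88 in both libraries.

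The promoters of the members with the largest difference in each direction are shown for comparison, as the 250 bases before the RefSeq start on GRCm38. The GENCODE gene spans given above begin shortly before the end of these windows. Capitals mark matches to the motifs searched on both strands, GAGGAAG for PU.1, TGANTCA for AP-1 and TTGCNNAA for C/EBP. No motif contains another.
Slc11a1 promoter, chr1:74374953-74375202, plus strand: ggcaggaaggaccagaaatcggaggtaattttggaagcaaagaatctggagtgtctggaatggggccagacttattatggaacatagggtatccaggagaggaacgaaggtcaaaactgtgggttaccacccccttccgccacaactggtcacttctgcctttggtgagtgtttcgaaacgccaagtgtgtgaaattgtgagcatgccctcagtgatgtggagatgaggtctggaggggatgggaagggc
Mrc1 promoter, chr2:14229164-14229413, plus strand: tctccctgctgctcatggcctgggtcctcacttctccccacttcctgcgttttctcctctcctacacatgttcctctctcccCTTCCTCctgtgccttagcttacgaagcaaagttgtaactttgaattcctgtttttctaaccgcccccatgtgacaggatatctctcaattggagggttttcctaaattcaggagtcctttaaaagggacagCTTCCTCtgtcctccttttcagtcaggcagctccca
The Mrc1 sequence holds 2 matches, both to the PU.1 letters on the reverse strand, and the Slc11a1 sequence holds 0 matches. RefSeq promoter windows of 250 bases before to 50 after the start were available for 28 of the 36 members, 37 windows in all. The PU.1 letters were in 27.0% of them, against 13.7% of 11988 windows of genes in the table. The AP-1 letters were in 16.2% against 5.28%, and the C/EBP letters in 18.9% against 8.45%. Windows of 1 gene can overlap, a match is not a bound site, and these shares were not tested. Members with the PU.1 letters lay on both sides of 0. Above were Cd53, Fcgr1, Mmp12 and Pf4, and below were C1qc, Fcgr3, Laptm5, Mrc1 and Trem2.

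**Figure D2:**
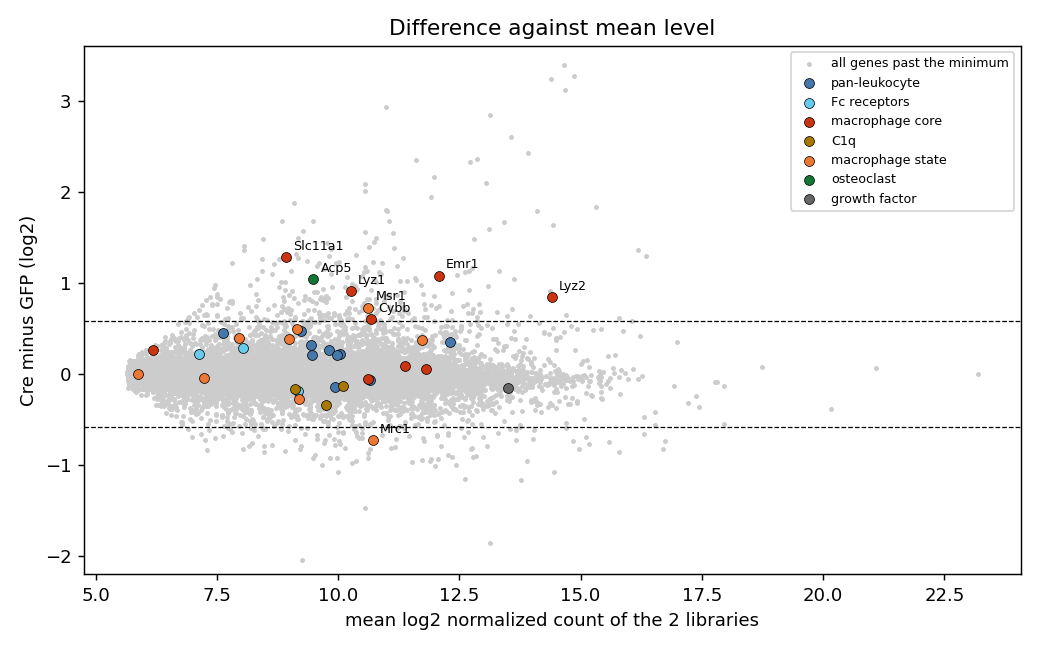
Difference between libraries (y axis, Cre minus GFP, log2) against mean log2 normalized count (x axis) for 12809 genes (grey) and the 36 markers (coloured by class). Dashed lines are 1.5-fold. Named are the 8 markers past the lines, of which only Mrc1 lies below 0.

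Acp5 was the 1 measured osteoclast marker, and it was higher in Cre. It encodes tartrate-resistant acid phosphatase, the enzyme stained to count osteoclasts, which macrophages can also express (chromosome 9, 22126727 to 22135711, minus strand). Its log2 normalized count was 10.01 in Cre and 8.97 in GFP, a 2.06-fold difference, and 19 of 2526 genes near its mean level were as high or higher. Exons of 6530413G14Rik on the opposite strand cover 6.75% of its exon bases. With 1 gene, the osteoclast class cannot be compared with the others.

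Genes of the osteoclast resorption machinery did not share the size of the Acp5 difference. Of 14 listed, 12 were measured, 9 lay above 0 and the median was 0.10. In the direction of Cre, 1 gene passed 1.5-fold (2.25% of all genes). That gene was Mmp9, a gelatinase gene that cells other than osteoclasts also express, with a log2 normalized count of 11.32 in Cre and 10.10 in GFP (2.33-fold). The collagen-degrading cathepsin gene Ctsk differed by 0.10, the proton pump genes Tcirg1 and Atp6v0d2 by 0.55 and -0.04, and the integrin gene Itgb3 by 0.07. These and other genes named here without passing 1.5-fold, outside the members, were chosen after their values were seen.

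The cytokines that direct osteoclast formation differed in opposite directions. Tnfsf11 (RANKL) had a log2 normalized count of 10.33 in Cre and 8.65 in GFP and was 3.20-fold higher in Cre. Tnfrsf11b (osteoprotegerin) had 11.75 in Cre and 12.15 in GFP, a difference of -0.40. The RANKL receptor gene Tnfrsf11a differed by 0.27, Nfatc1, the transcription factor gene that drives osteoclast differentiation, by 0.33 and its partner Mitf by 0.26. In the list of CSF1 and RANKL axis genes, 17 of 19 were measured, 15 lay above 0 and the median was 0.21. The 1.5-fold threshold was passed by 2, both on the side of Cre, where 2.25% of all genes did so. The second higher gene was Syk, a kinase gene downstream of Tyrobp and Fcer1g, with 10.06 in Cre and 9.42 in GFP (1.56-fold).

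Csf1, the growth factor that macrophages need, was not higher in Cre. Its log2 normalized count was 13.42 in Cre and 13.58 in GFP, a difference of -0.16, and Il34, the other ligand of CSF1R, differed by 0.26. Chemokines that attract monocytes and macrophages had larger differences than most markers of those cells. All 7 measured of 10 listed lay above 0, with a median of 0.98 against 0.24 for the members. Cre was higher by 1.5-fold or more for 6 (2.25% of all genes) and by 2-fold or more for 3 (0.734%). Ccl2 had 13.06 in Cre and 10.90 in GFP (4.46-fold), Ccl7 11.91 and 10.12 (3.46-fold), and Cx3cl1, the fractalkine gene, 11.09 and 9.97 (2.16-fold). Ccl3, Ccl9 and Ccl4 were 1.97-fold, 1.82-fold and 1.54-fold higher. Earlier results from this table had already shown inflammatory genes higher in Cre, so these values are no separate support.

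Genes of macrophage activation were measured for 6 of 15 listed, with a median of 1.04. All 6 were at least 1.5-fold higher in Cre (2.25% of all genes). They share Ccl2, Ccl3 and Ccl4 with the chemokine list. The others were the prostaglandin synthase gene Ptgs2 (2.32-fold), the feedback inhibitor gene Socs3 (2.15-fold) and Tnf (1.69-fold), and each of these can be expressed by cells other than macrophages. Arg1, Retnla, Nos2 and Il1b were not analysed here. In the list of other monocyte and macrophage genes, 25 of 30 were measured and 17 lay above 0, with a median of 0.09. At least 2-fold higher in Cre (0.734% of all genes) were 2, the pattern-recognition receptor genes Tlr2 (2.91-fold) and Cd14 (2.06-fold). Itgam, the CD11b gene, differed by 0.58, just short of 1.5-fold.

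**Figure D3:**
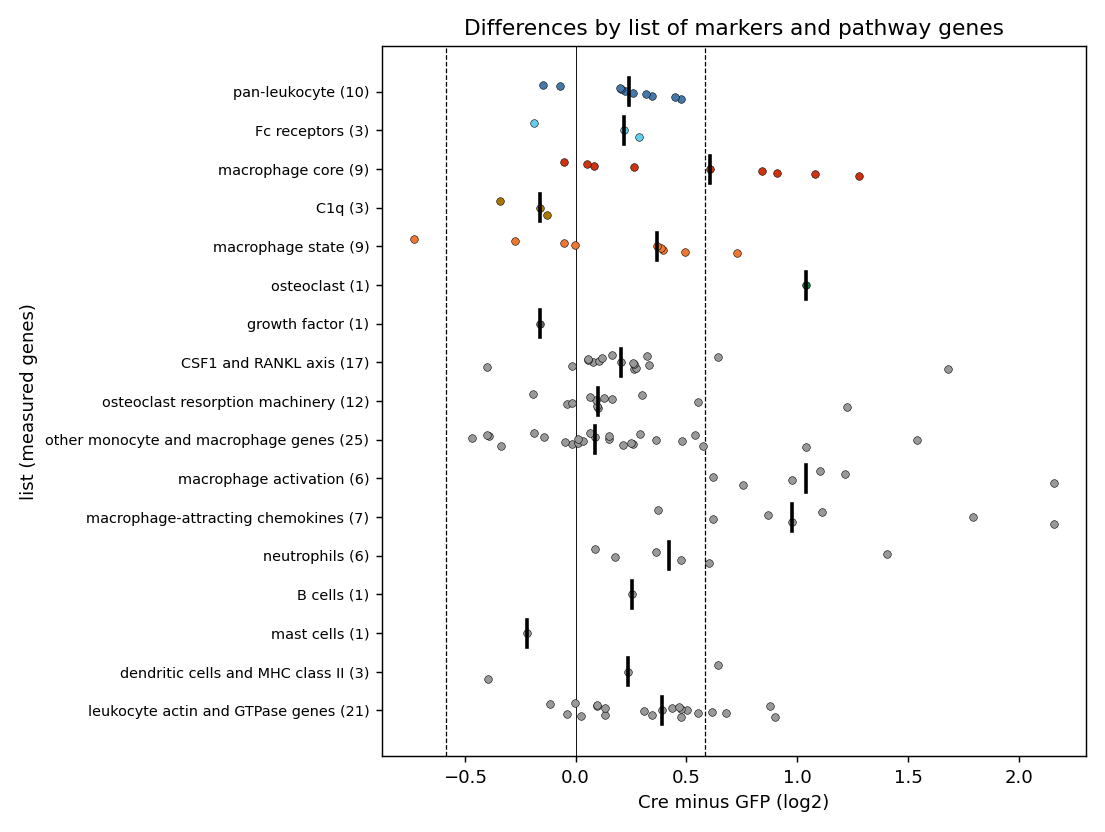
Difference between libraries (x axis, Cre minus GFP, log2) for each measured gene, by list (y axis, number of measured genes in brackets). Points are genes, thick bars are medians and dashed lines are 1.5-fold. The pan-leukocyte median is 0.24, the macrophage core median 0.61 and the chemokine median 0.98, while the C1q genes lie below 0.

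Signalling and cytoskeletal genes of leukocytes were shifted to the same side as the pan-leukocyte markers. All 21 listed were measured, 18 lay above 0 and the median was 0.39. The 1.5-fold threshold was passed by 4, all on the side of Cre, where 2.25% of all genes did so. Rac2, a GTPase gene of blood cells, was 1.87-fold higher, and Runx1, a transcription factor gene that skeletal cells also express, 1.83-fold. The leukocyte signalling gene Hcls1 was 1.60-fold and the integrin gene Itgb2 1.53-fold higher. Irf8 and Ikzf1, transcription factor genes of blood lineages, each differed by 0.10.

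Other leukocyte lineages gave few values. Of 11 T and NK cell genes 0 matched a row of the table, and of 6 B cell genes only Blnk did (0.25), which macrophages can express too. Of 6 mast cell genes, Kit was measured, at -0.22. Neutrophil genes were measured for 6 of 11, all above 0, with a median of 0.42. Camp, the cathelicidin gene, had a log2 normalized count of 8.76 in Cre and 7.35 in GFP (2.65-fold), and S100a8 had 8.005 in Cre and 7.404 in GFP (1.52-fold). Of 8 genes of dendritic cells and MHC class II, 3 passed the minimum: H2-Ab1 was 1.56-fold higher in Cre, Cd74 differed by 0.24 and Itgax, the CD11c gene, by -0.39.

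Levels per kilobase of exon set these markers against the chondrocytes of the culture. Means are geometric, taken on the log2 values of both libraries. Lengths are the merged exons of all annotated transcripts of a gene. The level is understated where the transcripts present are shorter than that. Lyz2 had a mean normalized count per kilobase of 16464, at percentile 99.6 of 11589 genes with a length. Col2a1, the main cartilage collagen gene, was higher (126569). Acan, the aggrecan gene, had a mean of 14311, but its order with Lyz2 differed between libraries. In Cre, Lyz2 had 22023 and Acan 10736, while in GFP Lyz2 had 12308 and Acan 19076. Csf1 followed at 2198, Tyrobp at 1568, Emr1 at 1336 and Cd68 at 1253. Ptprc reached 49.1, at percentile 16.2, over a long merged length of 18313 bases, so its place may be too low. Cd163 reached 10.8, at percentile 1.42. By this measure the members ran from near the bottom to near the top of the measured genes.

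**Figure D4:**
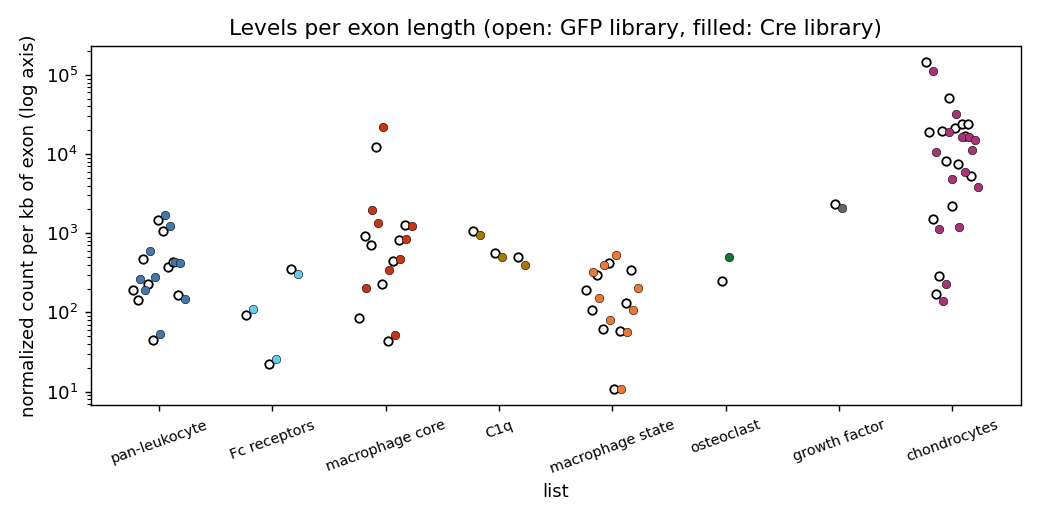
Normalized count per kilobase of exon (y axis, log axis) in the GFP library (open) and the Cre library (filled), for the marker classes and for chondrocyte genes (x axis). Each pair of points is 1 gene. Lyz2 is the only marker at the level of the abundant cartilage genes, and the chondrocyte points are lower in Cre.

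Summed over genes on the linear scale, the 35 members other than the ligand Csf1 held 0.180% of the table's total in Cre and 0.128% in GFP, a ratio of 1.40. Lyz2 carried much of this: without it the ratio was 1.23. The sum of the 10 pan-leukocyte genes was 1.17 times as high in Cre, that of the macrophage core genes 1.62 times, and that of the C1q genes 1.16 times as high in GFP. Chondrocyte markers moved the other way. All 15 were measured and lay below 0, and 5 of them passed 1.5-fold (0.952% of all genes lower). Many of them are abundant, and such differences were less rare at high levels. At a mean log2 value of 13 or more, 4.04% of genes were that much lower and 5% that much higher. The chondrocyte markers had a median of -0.47, and they held 4.03% of the total in Cre and 5.48% in GFP. Fibroblast markers split, with 4 of 7 above 0 and 3 below, a median of 0.35 and a mean of 0.21. They ran from the collagen gene Col1a2 at -0.32 to Lum, a proteoglycan gene, 1.57-fold higher in Cre. The 5 osteoblast genes had a median of -0.19, the 4 endothelial genes past the minimum 0.07, and the erythroid gene Alas2 lay at 0.03. The part of cell composition in the marker differences was not tested.

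Side by side, the 10 pan-leukocyte genes were centred on a median of 0.24 and 0 of them passed 1.5-fold. The 24 genes of the 4 macrophage classes (core, state, C1q and Fc receptors) had a pooled median of 0.24. Past 1.5-fold were 6 on the side of Cre (2.25% of all genes) and 1 on the side of GFP (0.952%). The median of 0.24 holds for these classes pooled. Their own medians were 0.61 for core genes, 0.37 for state genes, 0.22 for Fc receptors and -0.16 for C1q. The pooled median also depends on the minimum. At a minimum mean of 500 on the linear scale the pooled median was 0.085 over 17 genes, and that of the pan-leukocyte genes was 0.22 over 9. Taken relative to the pan-leukocyte median, a step added after the data were seen, 4 macrophage genes were still at least 1.5-fold higher in Cre and 1 was lower, and with Acp5 the count was 5 of 36. With 1 library per group, these differences between classes were not tested.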

How the data were processed

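RNA of 2 chondrocyte cultures was sequenced after TruSeq v2 mRNA library preparation, per the labels' protocols. Reads were demultiplexed with bcl2fastq 1.8.4, aligned with TopHat2 2.0.6 to mm10 and counted with HTSeq, per the submitters' processing notes. The authors deposited log2 values of normalized counts, 1 column per library. For the transform, the strand setting and the annotation, nothing is stated in the labels or notes used here. A regularized log, which compresses differences of less abundant genes, is inferred from the column heading rLogFC and the values. Depth is unknown and no counting error can be given.

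Computed here with Python 3.11.15, numpy 2.4.6, pandas 2.3.3 and Biopython 1.88 were differences (Cre minus GFP), counts at 1.5-fold and 2-fold among genes with a linear mean of at least 50, medians, linear values per kilobase of exon (GENCODE M21, GRCm38, lengths for 90.5% of genes past the minimum) and stretches of 50 bases shared between transcripts. Counting by fold was checked only as code, on values moved by known amounts without noise, which says nothing about error in these libraries. Promoters are from RefSeq on GRCm38.p6. Every measured member is named. Of other lists, up to 6 genes past 1.5-fold are named by rule. The members, lists and thresholds were chosen with earlier results of these data known.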

Additional observations from a re-analysis of the deposited data

How the results depend on the processing

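With 1 library per group, no result has an error between samples, and the alternatives show only how the numbers depend on choices made here. Raising the threshold to 2-fold left 3 of the 36 members higher and 0 lower in Cre, and among the 24 macrophage genes 2 higher and 0 lower. At a minimum mean of 500 on the linear scale, 17 macrophage genes were left, without Slc11a1, and their median moved to 0.085. Of 55 alternative values for counts and medians, these 5 moved and the other 50 did not (counts within 1.5 times, medians within 0.1). Many of the 50 could hardly move. All 36 members passed the minimum, so dropping it changed nothing, and centring or scaling added at most 0.0077 to a difference. Scaling to equal totals adds 0.0077 to every difference and turned only Cd163, from -0.0039 to 0.0038, among the 36 members. Leaving out Lyz1, added after the data were seen, left 6 members higher. The values hold no reads, so pseudocounts and count tests do not apply. No paired analysis was possible because there is a single library for Cre and for GFP.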

Other observations

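In the list of other monocyte and macrophage genes, 8 of 25 measured genes lay on the side of GFP, as Mrc1 and the C1q genes did, and 17 lay on the side of Cre, among them Stab1 (0.09), Axl (0.15), Cd14 (1.04) and Tlr2 (1.54). The 4 genes below were chosen for their negative values after these were seen, none reached 1.5-fold, and they do not stand for the list. Folr2, a folate receptor gene of tissue-resident macrophages, had a log2 normalized count of 8.39 in Cre and 8.85 in GFP, a difference of -0.47. Mertk, a receptor gene for the uptake of dying cells, had 8.93 in Cre and 9.33 in GFP, a difference of -0.39. The fractalkine receptor gene Cx3cr1 differed by -0.34, while the gene of its ligand, Cx3cl1, differed by 1.11. Apoe, a lipid carrier gene that chondrocytes also express, differed by -0.40.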
